A study of Mus musculus with 12 samples.

Results

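Long intergenic noncoding RNAs (lincRNAs) were read out across treatment groups of a mouse sarcoma. They were the genes that the deposited table lists with the biotype lincRNA, and that were chosen by their level, a mean over 12 libraries of at least 1 log2 CPM (read counts scaled to a common library total, on the log2 scale), with H19, Meg3 and Rian left out by name. This gave 139 of the 16335 genes in the table, and 139 of its 298 lincRNAs. The rule thus used the level and these names, and no difference between groups, but it was set with earlier results of these data known. BVMA01R is a murine sarcoma line of the genotype Myf5-Cre;p53-/-;Ass1-/-, in which Cre is driven by Myf5, a gene of the muscle lineage, and the tumors came from female C57BL/6J mice. Ass1 encodes argininosuccinate synthase, the enzyme that lets cells make their own arginine, and all 4 groups share both deletions. The groups, with 3 libraries each, were ADI-PEG20 plus chloroquine, ADI-PEG20 alone, chloroquine alone and untreated. ADI-PEG20 is a pegylated arginine deiminase that removes arginine from the circulation, and chloroquine blocks the lysosome and with it autophagy.

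LincRNAs are transcribed from loci of their own, are mostly spliced and carry no long reading frame. Some build nuclear structures or act on chromatin, others are the precursors of microRNAs or small nucleolar RNAs, and for many only the locus is known. Their levels are usually low and cell type specific, so that in a tumor they report on both the sarcoma cells and the cells around them. Among the 139, 75 carry only a Gm number and 32 a Riken clone name. Membership rests on the deposited biotype alone. Whether each of the 139 lacks a long reading frame was not tested, which also holds for Prr33, Zfp469 and Tmem250-ps.

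The 12 libraries held 15501998 to 28410940 reads in genes of the table, recovered from the deposited values, and the lowest count of any of the 139 lincRNAs in any library was 8 reads. The 8 markers listed for sarcoma and mesenchymal cells, none of them at 0, summed to 28608 to 40721 CPM in ADI-PEG20 plus chloroquine tumors, 29261 to 74024 in ADI-PEG20 tumors, 45031 to 77848 in chloroquine tumors and 39278 to 55605 in untreated tumors. As this list covers mesenchymal cells of any origin, it cannot tell sarcoma cells from those of the host. The gene-level values of Ass1 were 6.85 to 18.9 CPM and those of Trp53 13.05 to 26.8 CPM, and cannot tell what is left of a deleted gene in sarcoma cells from the intact gene of host cells. In these bulk samples, fewer cells of a type and less RNA per cell cannot be told apart. Nothing in the labels ties the libraries to separate mice, so p-values measure only the spread between these samples. ADI-PEG20 1 and untreated 2 stood apart, with the most Gm26917 and the lowest limma quality weights of the 12 libraries, 0.283 and 0.516. For several lincRNAs, values without both are given with the results.

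At the lower limit of 1 log2 CPM, the lincRNAs just inside were Gm26840 at a mean of 1.04, 2610035D17Rik at 1.05 and Gm26869 at 1.05. Just outside were Gm26538 at 0.97, Wincr1 at 0.95 and 1700086O06Rik at 0.95. Of the 3 genes left out by name, H19 at 5.22 and Meg3 at 6.19 lay above this limit, and the table lists Rian under another biotype.

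Several of the 139 span microRNAs, whose mature sequences come from RefSeq (GRCm38.p6). They are shown because the results on these hosts bear on the precursors of well-known regulators. The libraries measured long RNA, not the mature microRNAs. Capitals mark the seed, bases 2 to 8, with which a microRNA pairs to its targets.
Gm28653 hosts the muscle microRNAs miR-206 and miR-133b:
mmu-miR-206-3p: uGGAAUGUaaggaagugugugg
mmu-miR-133b-3p: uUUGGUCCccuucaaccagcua
Mir17hg hosts the miR-17-92 cluster of growth-promoting microRNAs, in which miR-17-5p and miR-20a-5p share 1 seed and both miR-19 forms another:
mmu-miR-17-5p: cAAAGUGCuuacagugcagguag
mmu-miR-20a-5p: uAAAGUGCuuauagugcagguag
mmu-miR-18a-5p: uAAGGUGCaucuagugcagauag
mmu-miR-19a-3p: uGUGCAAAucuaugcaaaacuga
mmu-miR-19b-3p: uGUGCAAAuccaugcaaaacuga
mmu-miR-92a-3p: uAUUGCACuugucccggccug
6720427I07Rik spans 3 let-7 hairpins, whose 5p arms have the same seed:
mmu-let-7a-5p: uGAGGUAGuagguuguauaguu
mmu-let-7d-5p: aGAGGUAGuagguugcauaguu
mmu-let-7f-5p: uGAGGUAGuagauuguauaguu
Mir142hg hosts miR-142a, a microRNA of blood cells:
mmu-miR-142a-3p: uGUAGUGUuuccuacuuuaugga
Mirg, at the imprinted cluster of chromosome 12 that also holds Meg3, hosts 26 mature microRNAs, of which these are examples:
mmu-miR-134-5p: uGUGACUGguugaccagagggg
mmu-miR-410-3p: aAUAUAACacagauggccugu

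The 139 lincRNAs were dominated by a few. Gm26917 (chr17:39843013-39846341, mm10) averaged 16.36 log2 CPM and Malat1, an RNA of nuclear speckles, 12.81. Neat1, the scaffold of paraspeckles, averaged 12.14, Xist, which silences the inactive X chromosome, 8.58 and Gm42418 8.58. Below these 5 came 1700020I14Rik at 6.09, Zfp469 at 6.06, Tmem250-ps at 5.40, 1810058I24Rik at 5.37 and Snhg18, which hosts small nucleolar RNAs, at 5.30. Only 11 of the 139 had a mean of 5 or more, 34 lay at 3 to 5, 35 at 2 to 3 and 59 at 1 to 2. The median was 2.25 log2 CPM, against 4.78 for the 12185 protein-coding genes with a mean of at least 1. Per kilobase of exon, the order began with Gm26917 at 29589.6 CPM per kb, Malat1 at 1032, Gm42418 at 268 and Neat1 at 225.

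**Figure D1:**
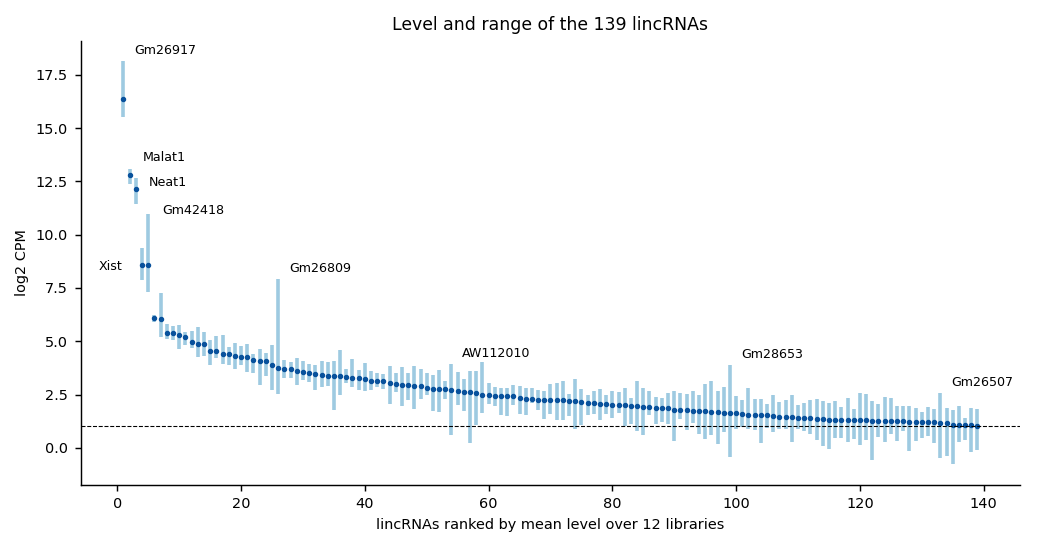
Level of each of the 139 lincRNAs in log2 CPM (y axis), ranked by its mean over the 12 libraries (x axis). Points are means, bars run from the lowest to the highest library, and the dashed line marks the lower limit of 1 log2 CPM. Only 11 lincRNAs lie at 5 log2 CPM or more, and Gm26809 has the longest bar.

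Gm26917 held most of the lincRNA signal in every library. Gm26917 had 58878, 48981 and 47252 CPM in ADI-PEG20 plus chloroquine tumors, 292666, 62548 and 55239 in ADI-PEG20 tumors, 80496, 89437 and 97220.3 in chloroquine tumors and 81476, 185126 and 82725 in untreated tumors. ADI-PEG20 1 and untreated 2 were far above the other 10 libraries, and the 3 combination libraries all lay below the 3 untreated ones. As a share of all CPM in the table, the 139 lincRNAs made up 7.68, 6.95 and 6.82% in ADI-PEG20 plus chloroquine tumors and 23.7, 8.39 and 7.4998% in ADI-PEG20 tumors. The share was 8.998, 10.4 and 11.6% in chloroquine tumors and 9.23, 17.7 and 9.81% in untreated tumors. The share did not differ between the 4 groups beyond their spread (exact permutation test of an F statistic on log2 shares, p = 0.37), and leaving out ADI-PEG20 1 gave p = 0.066. As background, Gm26917 lies at a locus of chromosome 17 that carries sequence like ribosomal RNA. Gm42418 lies beside it and shares 99.5% of its exon bases with other annotated genes. The kit used for these libraries removes ribosomal RNA, and how much was left in each library was not measured here.

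**Figure D2:**
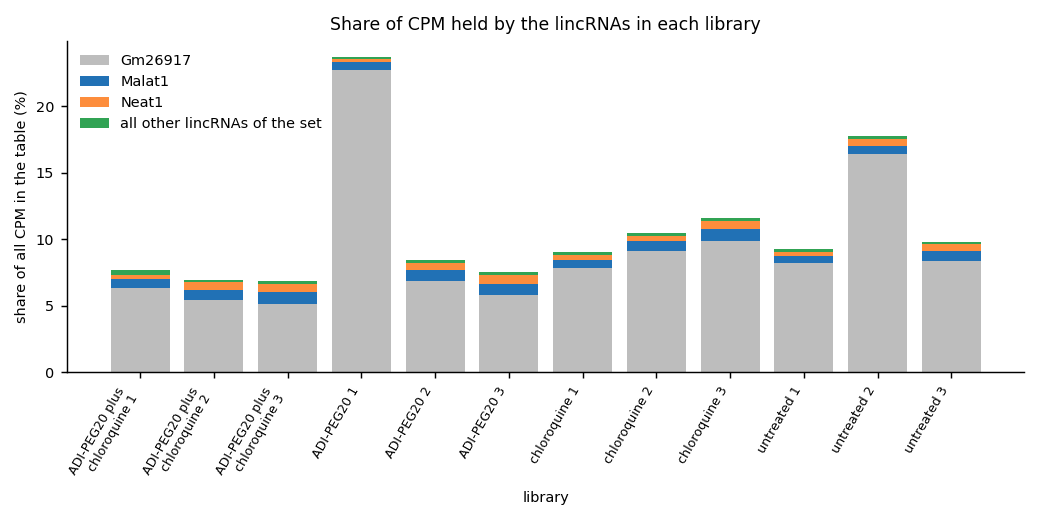
Share of all CPM in the table (y axis, percent) held by the 139 lincRNAs in each of the 12 libraries (x axis), split into Gm26917, Malat1, Neat1 and all others. Gm26917 fills most of every bar, and the bars of ADI-PEG20 1 (23.7%) and untreated 2 (17.7%) are the tallest.

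With Gm26917 left out of both the lincRNAs and the total, the other 138 held 1.16 to 1.92% of CPM over the 12 libraries, and the groups did not differ beyond their spread (exact permutation test, p = 0.79). The 5 most abundant lincRNAs together held 98.1 to 99.6% of the CPM of all 139. The remaining 134 shared 0.103 to 0.136% of the CPM of the table. Malat1 had 6785, 7343 and 8374 CPM in ADI-PEG20 plus chloroquine tumors, 6874, 7327 and 7857 in ADI-PEG20 tumors, 6555, 7204 and 8832 in chloroquine tumors and 5401, 6858 and 7098 in untreated tumors. All 4 groups overlapped, and Malat1 differed from untreated by 0.22 ± 0.22 log2 (SE) with ADI-PEG20 plus chloroquine, 0.20 ± 0.22 with ADI-PEG20 and 0.22 ± 0.22 with chloroquine.

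Neat1 had 2782, 5078 and 5726 CPM in ADI-PEG20 plus chloroquine tumors, 3785, 4537 and 6313 in ADI-PEG20 tumors, 3348, 4047 and 6393 in chloroquine tumors and 3158, 5966 and 5069 in untreated tumors. The groups overlapped throughout, and the difference of ADI-PEG20 plus chloroquine against untreated was -0.080 ± 0.34. Xist had 356, 337 and 419 CPM in ADI-PEG20 plus chloroquine tumors, 318, 342 and 376 in ADI-PEG20 tumors, 348, 478 and 384 in chloroquine tumors and 674, 233 and 487 in untreated tumors. Untreated 1 was highest and untreated 2 lowest, so that the untreated group alone spanned the range. Gm42418 had 1997, 225 and 339 CPM in ADI-PEG20 plus chloroquine tumors, 327, 324 and 573 in ADI-PEG20 tumors, 566, 287 and 157 in chloroquine tumors and 210.2, 499.96 and 389 in untreated tumors. ADI-PEG20 plus chloroquine 1 stood above all other libraries for Gm42418, and the rest overlapped.

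Differences between the groups were then tested for all 16335 genes with limma on the deposited log2 CPM, with Benjamini-Hochberg adjustment over all of them. No lincRNA had an adjusted p under 0.05 in any of the 5 comparisons of groups, in the interaction or over the 4 groups at once, and neither did any other gene, so that 0% of the table was called in each. limma with voom weights on the recovered reads also called 0 of the 139. The counts at an unadjusted p under 0.05 follow, each beside the share of all genes tested. ADI-PEG20 plus chloroquine against untreated had 8 such lincRNAs of 139 (5.76%), 4 higher and 4 lower, beside 8.65% of all genes. ADI-PEG20 plus chloroquine against ADI-PEG20 had 1, which was lower, beside 3.42% of all genes. ADI-PEG20 plus chloroquine against chloroquine had 5, all lower, beside 6.78%. These counts gave the lincRNAs no larger share than genes at large. ADI-PEG20 against untreated had 6, 5 of them higher, beside 8.31%. Chloroquine against untreated had 6, 5 of them higher, beside 3.4%. The interaction of the 2 drugs had 4, all negative, beside 4.26%, and the test over the 4 groups 5, beside 5.72%. In this fit, only for chloroquine against untreated was the share of the 139, 4.32%, above that of all genes. It was below that of all genes with limma quality weights per library (1.44%, beside 2.88%). The same held without ADI-PEG20 1 (4.32%, beside 4.65%) and without untreated 3 (5.76%, beside 8.30%). For ADI-PEG20 against untreated, the share was above that of all genes without ADI-PEG20 1 and untreated 2 (7.91%, beside 7.41%). With voom weights, ADI-PEG20 plus chloroquine had 10 such lincRNAs against untreated (beside 8.98% of all genes in that fit), 1 against ADI-PEG20 (beside 2.7%) and 5 against chloroquine (beside 7.16%). ADI-PEG20 against untreated had 8 (beside 8.14%) and chloroquine against untreated 5 (beside 3.45%) in the voom fit. The interaction had 3 (beside 4.18%) and the test over the 4 groups 8 (beside 5.57%).

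The median difference over the 139 was -0.063 log2, beside 0.0054 over all genes, for ADI-PEG20 plus chloroquine against untreated. It was -0.0066 log2, beside 0.0087 over all genes, for ADI-PEG20 plus chloroquine against ADI-PEG20, and -0.033 log2, beside 0.0098 over all genes, for ADI-PEG20 plus chloroquine against chloroquine. For ADI-PEG20 against untreated it was -0.014 log2, beside -0.0096 over all genes, and for chloroquine against untreated 0.012 log2, beside -0.0044 over all genes. With values scaled on total reads the median for ADI-PEG20 plus chloroquine against untreated was 0.10 log2, beside 0.17 over all genes. The number of lincRNAs at an unadjusted p under 0.05 moved with single libraries, and so did the share of all genes, which is given in parentheses for the same fit. For ADI-PEG20 plus chloroquine against untreated it was 4 (7.61%) without ADI-PEG20 plus chloroquine 2, 5 (5.98%) without ADI-PEG20 plus chloroquine 3 and 13 (11.2%) without ADI-PEG20 1. For ADI-PEG20 against untreated it was 11 (13.4%) without ADI-PEG20 2, 10 (12.04%) without untreated 3 and 11 (7.41%) without ADI-PEG20 1 and untreated 2. For ADI-PEG20 plus chloroquine against ADI-PEG20 it was 10 (9.21%) without ADI-PEG20 2, 6 (8.33%) without ADI-PEG20 3, 3 (2.35%) without ADI-PEG20 plus chloroquine 1 and 3 (2.72%) without ADI-PEG20 plus chloroquine 3. For ADI-PEG20 plus chloroquine against chloroquine it was 8 (7.15%) without ADI-PEG20 3, a library that enters this comparison only through the spread, and 9 (11.6%) without ADI-PEG20 1 and untreated 2. For the interaction it was 8 (7.06%) without ADI-PEG20 3, 2 (2.29%) without ADI-PEG20 1, 2 (3.03%) without chloroquine 1 and 2 (2.98%) without chloroquine 3. Over the 4 groups it was 8 (7.38%) without ADI-PEG20 1, 8 (8.48%) without untreated 3, 8 (8.01%) without ADI-PEG20 1 and untreated 2, 3 (3.998%) without ADI-PEG20 plus chloroquine 3 and 3 (4.38%) without untreated 1.

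**Figure D3:**
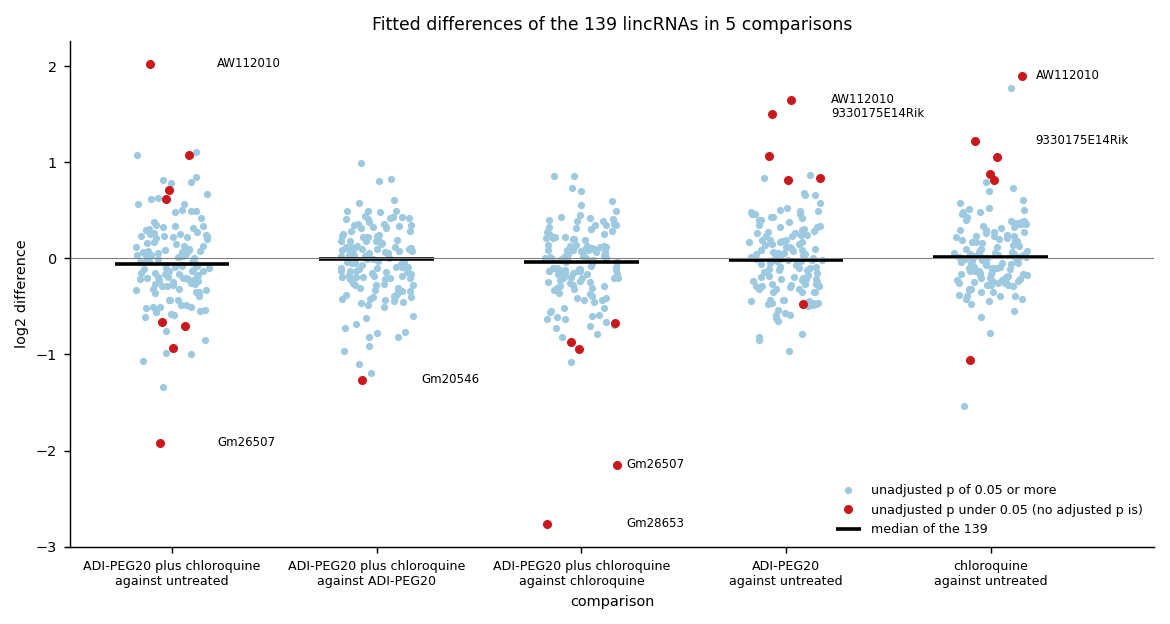
Fitted log2 differences (y axis) of the 139 lincRNAs in 5 comparisons of groups (x axis). Each point is 1 lincRNA, red where its unadjusted p was under 0.05, and the black bar is the median, which lies close to 0 in each. Gm28653 and Gm26507 lie lowest for ADI-PEG20 plus chloroquine against chloroquine, and AW112010 is highest in each comparison with untreated tumors.

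Separation of the 3 libraries of 2 groups, a count without a model, was set beside the same over all genes. For ADI-PEG20 plus chloroquine against untreated, 5 lincRNAs lay wholly higher (3.60%, beside 7.46% of all genes) and 11 wholly lower (7.91%, beside 7.92%). The 11 were Gm26917, Gm26507, Mirg, Gm20546, 4933404O12Rik, Gm26890, 4632415L05Rik, Gm15232, Gm26860, Gm26816 and C030037D09Rik. For ADI-PEG20 against untreated, 7 lay higher (beside 5.57%) and 5 lower (beside 4.54%). For chloroquine against untreated, 6 lay higher (beside 3.69%) and 3 lower (beside 3.72%). 9330175E14Rik and Gm26603 were among the higher ones with either single drug, comparisons that share the untreated libraries.

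AW112010 (chr19:11047612-11055808, between coding genes) had the largest positive difference with every treatment. In mouse cells it is known as an interferon-inducible transcript that is translated into a small protein. AW112010 had 12.5, 5.37 and 15.3 CPM in ADI-PEG20 plus chloroquine tumors, 3.46, 10.98 and 12.2 in ADI-PEG20 tumors, 5.74, 10.1 and 13.5 in chloroquine tumors and 1.498, 1.504 and 6.73 in untreated tumors. Untreated 1 and untreated 2 were lowest, and untreated 3 lay within the treated range, so that no treated group was separate from the untreated one. The log2 difference from untreated was 2.03 ± 0.63 with ADI-PEG20 plus chloroquine, 1.64 ± 0.63 with ADI-PEG20 and 1.90 ± 0.63 with chloroquine (SE), with limma adjusted p of 0.42, 0.54 and 0.999. Without ADI-PEG20 1 and untreated 2 these were 1.67, 1.87 and 1.54. The genes with the most similar profile over the 12 libraries were Gm4070 (r = 0.97), Ms4a4b (r = 0.95) and Cyp4f18 (r = 0.95).

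9330175E14Rik (chr8:94422898-94435103) runs opposite to Nlrc5, the transactivator of MHC class I genes, and begins 747 bases from its start. 9330175E14Rik had 3.36, 2.21 and 3.89 CPM in ADI-PEG20 plus chloroquine tumors, 3.93, 5.099 and 6.42 in ADI-PEG20 tumors, 3.02, 2.96 and 7.95 in chloroquine tumors and 1.34, 1.44 and 2.901 in untreated tumors. The 3 ADI-PEG20 and the 3 chloroquine libraries all lay above the 3 untreated ones, while the combination overlapped them. Against untreated, the log2 difference was 0.79 ± 0.45 with ADI-PEG20 plus chloroquine, 1.51 ± 0.45 with ADI-PEG20 and 1.22 ± 0.45 with chloroquine (SE), with limma adjusted p of 0.64, 0.52 and 0.999. The interaction, the combination's departure from the sum of both drugs, was -1.94 ± 0.63 (limma adjusted p = 0.82). Nlrc5 had 91.9, 53.9 and 122 CPM in ADI-PEG20 plus chloroquine tumors, 163, 120.2 and 133 in ADI-PEG20 tumors, 54.9, 60.1 and 169 in chloroquine tumors and 37.1, 36.2 and 93.9 in untreated tumors. Nlrc5 was likewise lowest in untreated 1 and 2, and its difference with ADI-PEG20 was 1.46 ± 0.44 (limma adjusted p = 0.52). The profiles most like that of 9330175E14Rik were those of H2-D1 (r = 0.94), Nlrp1c-ps (r = 0.94) and Tap1 (r = 0.94), where H2-D1 is an MHC class I chain and Tap1 loads its peptides. Whether the files' counting used strand is not given in the sources used here, so reads of the lincRNA and of Nlrc5 cannot be told apart where they overlap.

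Gm26857 overlaps Lyn, a Src family kinase of myeloid and B cells, on the opposite strand. Gm26857 had 16.2, 15.9 and 23.03 CPM in ADI-PEG20 plus chloroquine tumors, 21.9, 21.6 and 16.7 in ADI-PEG20 tumors, 20.2, 14.9 and 24.9 in chloroquine tumors and 7.69, 9.61 and 18.5 in untreated tumors. Untreated 1 and 2 were again below all treated libraries and untreated 3 among them. The differences from untreated were 0.71 ± 0.30, 0.84 ± 0.30 and 0.82 ± 0.30 log2 (SE) with ADI-PEG20 plus chloroquine, ADI-PEG20 and chloroquine (limma adjusted p = 0.55, 0.52 and 0.999). Lyn itself had 129, 94.7 and 139.5 CPM in ADI-PEG20 plus chloroquine tumors, 80.5, 104 and 112 in ADI-PEG20 tumors, 123, 95.4 and 95.8 in chloroquine tumors and 77.9, 57.6 and 114 in untreated tumors. Untreated 1 and 2 were its lowest libraries too.

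Markers of immune cells were read beside these 3 lincRNAs. The 7 macrophage and monocyte markers, all in the table and none at 0, summed to 824 to 1080.03 CPM in ADI-PEG20 plus chloroquine tumors, 721 to 933 in ADI-PEG20 tumors, 535 to 768 in chloroquine tumors and 484 to 611 in untreated tumors. Their means were higher than in untreated tumors for 7 of 7 with ADI-PEG20 plus chloroquine, 7 of 7 with ADI-PEG20 and 6 of 7 with chloroquine. Among the untreated libraries the macrophage sum was highest in untreated 2, at 611 CPM, a library in which the 3 lincRNAs were low. The 6 markers of T and natural killer cells summed to 13.6 to 23.6 CPM in ADI-PEG20 plus chloroquine tumors, 21.5 to 24.7 in ADI-PEG20 tumors, 11.2 to 33.4 in chloroquine tumors and 6.99 to 14.5 in untreated tumors, with 2 of the 6 at 0 in at least 1 library and higher means for all 6 with each treatment. Ptprc, the common leukocyte marker, had 81.2 to 157 CPM in ADI-PEG20 plus chloroquine tumors, 89.2 to 126 in ADI-PEG20 tumors, 77.6 to 139 in chloroquine tumors and 47.2 to 101 in untreated tumors. The 4 neutrophil markers, 1 of them at 0 in at least 1 library, summed to 15.1 to 39.1 CPM in ADI-PEG20 plus chloroquine tumors, 25.7 to 32.96 in ADI-PEG20 tumors, 18.95 to 28.9 in chloroquine tumors and 17.8 to 24.3 in untreated tumors, with higher means for 3 of 4 with ADI-PEG20 plus chloroquine, 2 of 4 with ADI-PEG20 and 1 of 4 with chloroquine. Of 5 B and plasma cell markers, 2 were in the table, 1 of them at 0 in at least 1 library, with higher means for both with each treatment. Ptprc overlapped between each treated group and the untreated one, as did the neutrophil sum with ADI-PEG20 plus chloroquine and with chloroquine, while the neutrophil sums of the 3 ADI-PEG20 libraries lay above those of the 3 untreated ones. The part of immune cells in the levels of AW112010, 9330175E14Rik and Gm26857 was not tested.

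Of the 4 lincRNAs on the immune list, AW112010 was the only one with an unadjusted p under 0.05, in each comparison with untreated tumors. Mir142hg had 1.22 to 5.07 CPM, and its 3 ADI-PEG20 libraries at 3.14, 2.57 and 4.68 CPM all lay above the 3 untreated ones at 1.22, 2.55 and 2.14 CPM. The difference was 0.84 ± 0.49 log2 (SE, limma adjusted p = 0.64). Gm14005, known in mouse as Morrbid, which holds back the death gene Bcl2l11 in short-lived myeloid cells, stayed at 14.9 to 27.1 CPM, with 0.083 ± 0.24 log2 for ADI-PEG20 plus chloroquine against untreated. Mirt1, first named in injured mouse heart, ranged widely from 1.15 to 12.2 CPM, with its lowest value in ADI-PEG20 1.

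Gm26584 (chr8:40862395-40865647) overlaps Slc7a2, a transporter of arginine and other cationic amino acids, on the opposite strand. Gm26584 had 4.39, 4.22 and 4.52 CPM in ADI-PEG20 plus chloroquine tumors, 3.22, 1.71 and 6.38 in ADI-PEG20 tumors, 3.66, 2.35 and 4.67 in chloroquine tumors and 2.42, 1.14 and 3.22 in untreated tumors. The 3 combination libraries were close together and above all untreated ones. The difference was 1.08 ± 0.49 log2 (SE, limma adjusted p = 0.57), and 0.65 without ADI-PEG20 1 and untreated 2. Slc7a2 had 77.5, 88.6 and 132 CPM in ADI-PEG20 plus chloroquine tumors, 88.2, 51.4 and 122 in ADI-PEG20 tumors, 62.2, 49.8 and 85.6 in chloroquine tumors and 48.2, 46.3 and 69.3 in untreated tumors. The combination also lay wholly above untreated for Slc7a2, by 0.85 ± 0.31 log2 (limma adjusted p = 0.48). Reads of Slc7a2 and Gm26584 cannot be told apart either where the genes overlap.

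Other lincRNAs with an unadjusted p under 0.05 and a higher mean than untreated were Gm20707 and 6030443J06Rik with ADI-PEG20, Gm26563 and Gm15907 with chloroquine and Gm26603 with ADI-PEG20 plus chloroquine. Gm20707 had 3.77, 3.405 and 2.89 CPM in ADI-PEG20 tumors and 0.899, 1.87 and 2.39 in untreated tumors, a difference of 1.07 ± 0.40 log2 (SE). Gm26563, which lies on the opposite strand within Suz12, had 3.55, 4.73 and 4.38 CPM in chloroquine tumors and 2.54, 2.06 and 1.56 in untreated tumors (1.06 ± 0.38 log2). Neither pair of groups overlapped. Gm26603 had 8.54, 16.4 and 12.6 CPM in ADI-PEG20 plus chloroquine tumors and 7.69, 8.62 and 7.43 in untreated tumors, which overlapped (0.61 ± 0.26 log2). For these 3 the limma adjusted p was 0.54, 0.999 and 0.55. Next in order with ADI-PEG20 plus chloroquine came AI504432 (1.08 ± 0.50 log2) and 4931403G20Rik (1.11 ± 0.52 log2), the second of which was 0.49 without ADI-PEG20 1 and untreated 2.

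6030443J06Rik had 3.22, 3.79 and 3.98 CPM in ADI-PEG20 tumors and 2.34, 1.87 and 2.01 in untreated tumors, without overlap (0.82 ± 0.31 log2), and Gm15907 4.35, 3.61 and 6.93 CPM in chloroquine tumors and 3.18, 1.504 and 3.67 in untreated tumors (0.88 ± 0.39 log2). Those next in order of p did not reach an unadjusted 0.05. With ADI-PEG20 against untreated they were Gm26823 (0.58 ± 0.31 log2) above, and Gm10076 (-0.54 ± 0.25 log2), Gm15232 (-0.65 ± 0.35 log2), 2610037D02Rik (-0.56 ± 0.30 log2), 4933404O12Rik (-0.47 ± 0.26 log2) and Gm26853 (-0.59 ± 0.35 log2) below. With chloroquine against untreated they were Gm26603 (0.52 ± 0.26 log2) above, and 2010300F17Rik (-0.78 ± 0.38 log2), Gm26798 (-0.39 ± 0.22 log2), Gm14010 (-0.48 ± 0.32 log2), Gm26809 and Epb41l4aos (-0.55 ± 0.38 log2) below. For ADI-PEG20 plus chloroquine against ADI-PEG20 they were Gm16001 (0.83 ± 0.50 log2), AI504432 (0.80 ± 0.50 log2) and Gm26601 (0.41 ± 0.28 log2) above, and Ino80dos (-0.82 ± 0.41 log2) below. For ADI-PEG20 plus chloroquine against chloroquine, Gm26522, Gm14005 (0.36 ± 0.24 log2) and Gm26767 (0.73 ± 0.50 log2) were above. The interaction was largest among positive values by p for Gm26853 (0.87 ± 0.49 log2), Gm10076 (0.63 ± 0.36 log2) and Mirt1 (1.42 ± 0.96 log2). Several of these were smaller without ADI-PEG20 1 and untreated 2. With chloroquine against untreated, Gm15907 was then 0.48 and Epb41l4aos -0.29 log2. For ADI-PEG20 plus chloroquine against ADI-PEG20, Gm16001 was 0.19 and AI504432 0.25 log2. The interaction of Mirt1 was 0.24 log2.

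**Figure D4:**
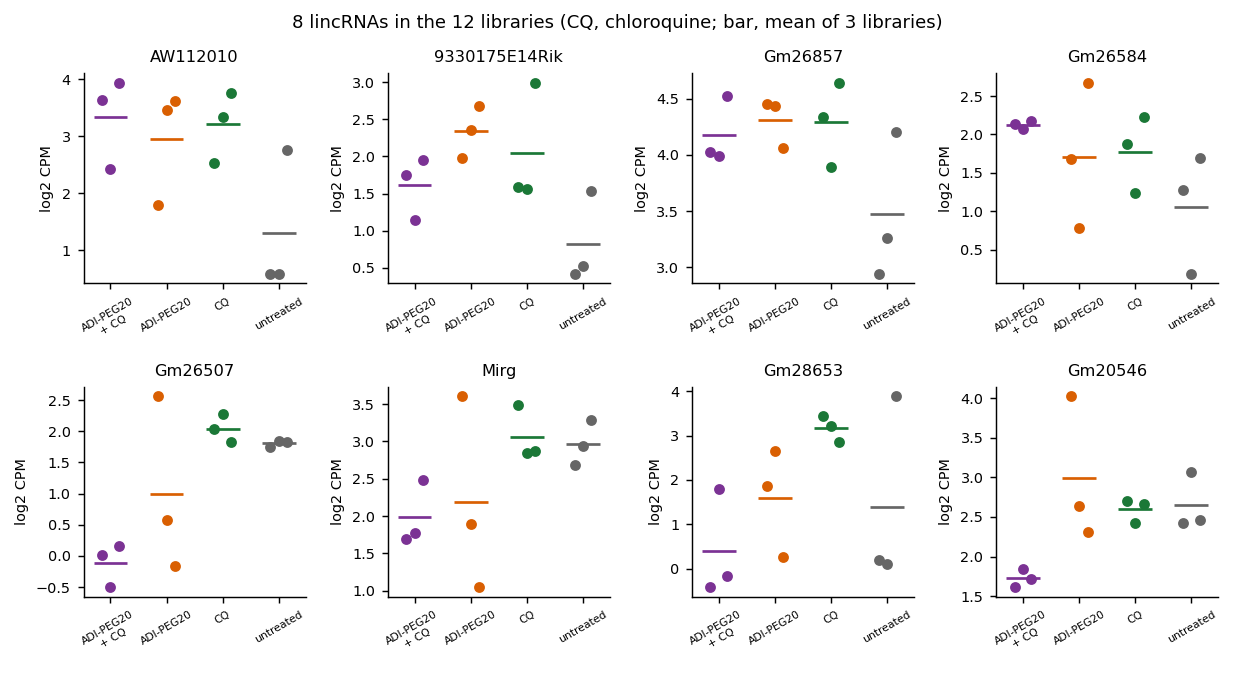
Level of 8 lincRNAs in log2 CPM (y axis) in the 12 libraries, by group (x axis: ADI-PEG20 plus chloroquine, ADI-PEG20, chloroquine, untreated). Each point is 1 library and each bar the mean of 3. Untreated 1 and 2 lie lowest for AW112010 and Gm26857, and the 3 combination libraries lie below all untreated ones for Gm26507, Mirg and Gm20546.

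Gm26507, on chromosome 18, had the smallest p of the 139 over the 4 groups and was lowest with ADI-PEG20 plus chloroquine. Its start lies 235 bases from that of Fbn2, on the other strand. Fbn2 encodes fibrillin 2, a component of extracellular microfibrils. Gm26507 had 1.01, 0.706 and 1.11 CPM in ADI-PEG20 plus chloroquine tumors, 5.92, 1.49 and 0.892 in ADI-PEG20 tumors, 4.08, 4.82 and 3.55 in chloroquine tumors and 3.38, 3.59 and 3.54 in untreated tumors. The 3 combination libraries lay below all chloroquine and all untreated libraries, and the ADI-PEG20 group was split, with ADI-PEG20 1 the highest of the 12. ADI-PEG20 3 lay within the range of the combination and ADI-PEG20 2 next above it, so low levels were not confined to the combination. The log2 difference was -1.92 ± 0.55 against untreated, -1.10 ± 0.55 against ADI-PEG20 and -2.15 ± 0.55 against chloroquine (SE), with limma adjusted p of 0.40, 0.89 and 0.50. Without ADI-PEG20 1 and untreated 2 they were -1.90, -0.32 and -2.15. A fit of the ADI-PEG20 plus chloroquine and chloroquine libraries alone gave the 1 call of a lincRNA under any setting, with a limma adjusted p of 0.045. In the authors' deposited table, Gm26507 had the smallest p of the 139 for ADI-PEG20 plus chloroquine against chloroquine, with a log2 fold change of -2.14 and an adjusted p of 0.0643. It also had the smallest p there for ADI-PEG20 plus chloroquine against untreated (-1.87 log2, adjusted p = 0.19). The same held for ADI-PEG20 against untreated (-1.36 log2, adjusted p = 0.86) and chloroquine against ADI-PEG20 (1.63 log2, adjusted p = 0.67).

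Fbn2 had 40.1, 24.9 and 57.9 CPM in ADI-PEG20 plus chloroquine tumors, 92.7, 37.96 and 42.2 in ADI-PEG20 tumors, 165, 108 and 101 in chloroquine tumors and 125, 91.1 and 99.3 in untreated tumors. The log2 difference of Fbn2 was -1.43 ± 0.35 with ADI-PEG20 plus chloroquine against untreated and -1.65 ± 0.35 against chloroquine (limma adjusted p = 0.32 and 0.49). The profiles most like that of Gm26507 were those of Meg3 (r = 0.96), Tpm2 (r = 0.96) and Zyx (r = 0.95). Meg3, the imprinted lincRNA left out by name, had 39.6, 22.8 and 50.6 CPM in ADI-PEG20 plus chloroquine tumors, 175, 52.6 and 30.8 in ADI-PEG20 tumors, 136, 104 and 109.8 in chloroquine tumors and 75.1, 135 and 109 in untreated tumors. As for Gm26507, the combination lay below all untreated and all chloroquine libraries.

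Mirg, from the cluster of Meg3, is the only one of the 139 on the list of imprinted loci. Mirg had 3.23, 3.404 and 5.62 CPM in ADI-PEG20 plus chloroquine tumors, 12.2, 3.72 and 2.07 in ADI-PEG20 tumors, 11.2, 7.15 and 7.32 in chloroquine tumors and 6.41, 7.704 and 9.72 in untreated tumors. All 3 combination libraries lay below the untreated and chloroquine ones, and ADI-PEG20 held both the highest and the lowest library. The difference was -0.99 ± 0.50 log2 against untreated and -1.08 ± 0.50 against chloroquine (SE, limma adjusted p = 0.61 and 0.74). Rtl1, a coding gene of the same imprinted cluster, had 4.51, 1.73 and 4.43 CPM in ADI-PEG20 plus chloroquine tumors, 12.3, 4.11 and 2.89 in ADI-PEG20 tumors, 15.4, 7.57 and 10.4 in chloroquine tumors and 4.34, 10.9 and 10.3 in untreated tumors. For Rtl1, untreated 1 lay within the range of the combination.

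Gm20546 was lowest with ADI-PEG20 plus chloroquine as well. Gm20546 had 3.06, 3.58 and 3.297 CPM in ADI-PEG20 plus chloroquine tumors, 16.3, 6.25 and 4.94 in ADI-PEG20 tumors, 6.49, 5.38 and 6.34 in chloroquine tumors and 5.37, 8.38 and 5.51 in untreated tumors. The combination lay below all other libraries, and ADI-PEG20 1 was far the highest. The difference was -1.27 ± 0.38 log2 against ADI-PEG20 (SE, limma adjusted p = 0.89), and -0.75 without ADI-PEG20 1 and untreated 2. Against untreated it was -0.93 ± 0.38 (limma adjusted p = 0.54). 4933404O12Rik had 8.96, 6.27 and 6.799 CPM in ADI-PEG20 plus chloroquine tumors and 15.96, 9.98 and 9.595 in untreated tumors, without overlap, a difference of -0.67 ± 0.26 log2. Gm26890 had 3.49, 2.59 and 4.89 CPM in ADI-PEG20 plus chloroquine tumors and 5.13, 6.41 and 5.83 in untreated tumors, also without overlap (-0.71 ± 0.29 log2). With the single drugs, the lower lincRNAs at an unadjusted p under 0.05 were Dubr with ADI-PEG20 (-0.48 ± 0.19 log2) and 5033430I15Rik with chloroquine (-1.06 ± 0.47 log2). Dubr, known as Dum in mouse myoblasts, had 21.2, 14.9 and 16.999 CPM in ADI-PEG20 tumors and 25.4, 22.3 and 25.5 in untreated tumors, without overlap. 5033430I15Rik was -0.63 without ADI-PEG20 1 and untreated 2.

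Gm28653 (chr1:20669882-20684298), the host of miR-206 and miR-133b, had the largest difference of any of the 139 in the 5 comparisons. It was the only lincRNA of the muscle list matched by symbol. Dubr, which that list holds under the name Dum, is given above. Gm28653 had 0.749, 3.45 and 0.887 CPM in ADI-PEG20 plus chloroquine tumors, 3.61, 6.28 and 1.197 in ADI-PEG20 tumors, 10.9, 9.25 and 7.22 in chloroquine tumors and 1.14, 1.07 and 14.8 in untreated tumors. The 3 chloroquine libraries lay above the 3 combination libraries, and untreated 3 was above all of them while untreated 1 and 2 were low. ADI-PEG20 plus chloroquine against chloroquine was -2.77 ± 0.92 log2 (SE, limma adjusted p = 0.58), and -3.46 to -2.36 when single libraries were left out. The interaction was -2.96 ± 1.30 (limma adjusted p = 0.82). Its profile was closest to Rbm24 (r = 0.91), Itgb1bp2 (r = 0.90) and Tnnt1 (r = 0.90), where Tnnt1 is troponin T of slow muscle. Tnnt1 had 5.97, 7.99 and 6.98 CPM in ADI-PEG20 plus chloroquine tumors, 16.005, 16.7 and 7.901 in ADI-PEG20 tumors, 42.7, 57.7 and 22.7 in chloroquine tumors and 12.2, 4.82 and 40.5 in untreated tumors. Tnnt1 had the same high libraries as Gm28653, the 3 of chloroquine and untreated 3.

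Markers of the muscle lineage differed between these libraries. The 5 markers of myogenic progenitors in the table summed to 319 to 487 CPM in ADI-PEG20 plus chloroquine tumors, 232 to 739.7 in ADI-PEG20 tumors, 597 to 1113 in chloroquine tumors and 729 to 812 in untreated tumors. The 7 markers of muscle fibers in the table, none at 0 in any library, summed to 58.3 to 105 CPM in ADI-PEG20 plus chloroquine tumors, 62.3 to 2566 in ADI-PEG20 tumors, 527 to 715 in chloroquine tumors and 50.4 to 1906 in untreated tumors. Myh3, the embryonic myosin heavy chain, had 18.9, 38.5 and 13.8 CPM in ADI-PEG20 plus chloroquine tumors, 261, 92.2 and 20.3 in ADI-PEG20 tumors, 305, 267 and 128 in chloroquine tumors and 4.73, 24.2 and 240.01 in untreated tumors. Untreated 3 and the chloroquine libraries were high for Myh3 as for Gm28653, but ADI-PEG20 1 had 261 CPM of Myh3 and 3.61 CPM of Gm28653. Untreated 1, where the fiber markers summed to 1906 CPM, had only 1.14 CPM of Gm28653. The part of muscle cells or of muscle-like sarcoma cells in Gm28653 was not tested.

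Prr33 overlaps Tnnt3, troponin T of fast muscle, on the opposite strand. Prr33 had 24.6, 18.9 and 22.4 CPM in ADI-PEG20 plus chloroquine tumors, 45.4, 20.8 and 19.6 in ADI-PEG20 tumors, 50.5, 40.01 and 36.3 in chloroquine tumors and 45.1, 21.9 and 30.6 in untreated tumors. ADI-PEG20 plus chloroquine lay below chloroquine without overlap, at -0.94 ± 0.31 log2 (SE, limma adjusted p = 0.59). Tnnt3 had 2.46 to 99.5 CPM, with its top values in untreated 1 and ADI-PEG20 1, which were also high for Prr33.

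Of the 5 nuclear and chromatin RNAs in the set (Malat1, Neat1, Xist, Jpx and Ftx), none had an unadjusted p under 0.05 in any of the 5 comparisons, and the list's median difference was 0.05 log2 for ADI-PEG20 plus chloroquine against untreated. Jpx and Ftx, which act with Xist at the X-inactivation center, had 1.15 to 4.94 CPM and 7.77 to 18.3 CPM. None of the 5 hosts of small nucleolar RNAs, which are processed from their introns, passed p under 0.05 either, and their median was -0.09 log2. Snhg6 had 3.46 to 16.8 CPM, Snhg12 6.55 to 14.6 CPM, Snhg18 25.1 to 54.4 CPM, Snhg20 9.79 to 16.1 CPM and Epb41l4aos 3.53 to 14.2 CPM. ADI-PEG20 1 was the lowest library for Snhg6, Snhg12, Snhg18 and Epb41l4aos.

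Among the microRNA hosts, Mir17hg had 5.67, 10.5 and 7.89 CPM in ADI-PEG20 plus chloroquine tumors, 3.296, 9.703 and 7.596 in ADI-PEG20 tumors, 5.95, 6.13 and 6.58 in chloroquine tumors and 9.49, 5.99 and 7.17 in untreated tumors. All groups overlapped, and the difference of ADI-PEG20 plus chloroquine against untreated was 0.069 ± 0.37 log2 (SE). 6720427I07Rik, which spans the let-7 hairpins, stayed at 10.3 to 22.2 CPM, with 0.23 ± 0.25 log2 for ADI-PEG20 plus chloroquine against untreated. The list linked to p53 or growth matched 2 lincRNAs by symbol, while Gm14005, which it holds as Morrbid, is given above with the immune list. Of these 2, Lncpint, a p53-induced transcript, had 7.18 to 16.8 CPM and 0.055 ± 0.26 log2 for ADI-PEG20 plus chloroquine against untreated. Pvt1, next to the growth gene Myc, had 18.8 to 37.7 CPM and 0.12 ± 0.26 log2. Neither had an unadjusted p under 0.05 in any comparison.

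Each lincRNA was set beside the nearest of the protein-coding genes in the table, over the 12 libraries. Annotated genes outside this choice were not considered, even where they lie closer. Gm26819, for example, shares exon bases with Med10 but was paired with Ube2ql1, 70025 bases away. The positions below hold for the paired genes only. The paired gene overlapped on the opposite strand for 45 of the 139, overlapped on the same strand for 9, started within 1000 bases in the divergent direction for 14, lay within 5000 bases for 23 and farther off for 48. The median r between a lincRNA and this gene was 0.28, against 0.21 for 12182 protein-coding genes and the nearest coding gene of the table. By position it was 0.35 for the 45 on the opposite strand, 0.16 for the 9 on the same strand, 0.11 for the 14 divergent ones, 0.24 within 5000 bases and 0.21 beyond. In 19 of the 139 pairs, the permutation p of r, adjusted over the 139, was under 0.05. Of these 18 were positive, 10 overlapped on the opposite strand and none was a divergent pair. These correlations share the libraries and their depth, and in overlapping pairs possibly the reads. The count of pairs under 0.05 was not made for the protein-coding genes. Whether 19 of 139 is more than coding pairs would give thus cannot be told.

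9330175E14Rik and Nlrc5 had r = 0.91 (permutation p = 3e-05, adjusted over the 139 pairs 0.0042) and rho = 0.91 (permutation p = 0.00011, adjusted 0.0076), and r was 0.81 without the 2 libraries farthest from the median of Nlrc5 and 0.90 after the group means were removed. Gm26522 and Ctsc, the lysosomal protease cathepsin C, had r = 0.89 (permutation p = 9e-05, adjusted over the 139 pairs 0.0051) and rho = 0.83 (permutation p = 0.0014, adjusted 0.024), and r was 0.83 without the 2 libraries farthest from the median of Ctsc and 0.94 after the group means were removed. Gm26584 and Slc7a2 had r = 0.84 (permutation p = 0.00053, adjusted over the 139 pairs 0.0073) and rho = 0.83 (permutation p = 0.0016, adjusted 0.025), and r was 0.83 without the 2 libraries farthest from the median of Slc7a2 and 0.83 after the group means were removed. These 3 pairs overlap on opposite strands and r was 0.83 to 0.94 after the group means were removed. For Gm26507 and Fbn2 the libraries fall into separate clumps, at low levels of both in the combination, ADI-PEG20 2 and ADI-PEG20 3 and at high levels in the others, and no pooled r is given. Mirg and Rtl1 are 129434 bases apart and had r = 0.87 (permutation p = 0.00036, adjusted over the 139 pairs 0.0069) and rho = 0.88 (permutation p = 0.00041, adjusted 0.013), and r was 0.88 without the 2 libraries farthest from the median of Rtl1 and 0.81 after the group means were removed. Pvt1 and Myc, 47612 bases apart, had r = 0.85 (permutation p = 0.0002, adjusted over the 139 pairs 0.0069) and rho = 0.85 (permutation p = 0.00074, adjusted 0.017), and r was 0.88 without the 2 libraries farthest from the median of Myc and 0.86 after the group means were removed. Neither of these 2 pairs shares exon bases. The negative pair was 4931403G20Rik and Map4k5, at r = -0.72 (permutation p = 0.0058, adjusted over the 139 pairs 0.044) and rho = -0.62 (permutation p = 0.035, adjusted 0.17), and r was -0.40 without the 2 libraries farthest from the median of Map4k5 and -0.59 after the group means were removed, so that it rests in part on those 2 libraries.

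**Figure D5:**
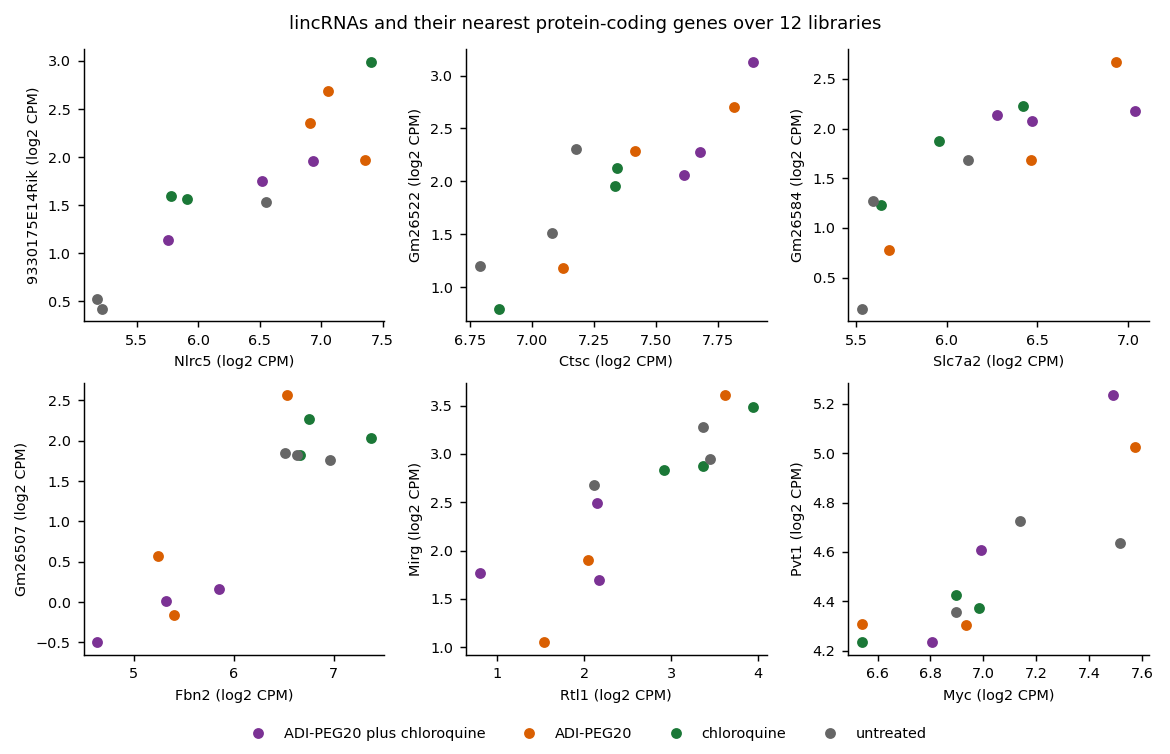
Level of 6 lincRNAs (y axes, log2 CPM) against the level of the nearest protein-coding gene of the table (x axes, log2 CPM). Each point is 1 of the 12 libraries, colored by group. Points run from low to high in all panels, with r between 0.84 and 0.91 in 5 of them, and form separate clumps for Gm26507 and Fbn2.

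Gm26522 was the lincRNA with the smallest p among those higher with ADI-PEG20 plus chloroquine than with chloroquine. Gm26522 had 4.17, 4.86 and 8.75 CPM in ADI-PEG20 plus chloroquine tumors, 2.26, 4.88 and 6.51 in ADI-PEG20 tumors, 1.74, 3.89 and 4.38 in chloroquine tumors and 2.298, 2.85 and 4.94 in untreated tumors. The combination and chloroquine groups overlapped, at 0.86 ± 0.48 log2 (SE, limma adjusted p = 0.78). Ctsc had 196, 205 and 238 CPM in ADI-PEG20 plus chloroquine tumors, 139.7, 171 and 226 in ADI-PEG20 tumors, 117, 162 and 162 in chloroquine tumors and 111, 135 and 145 in untreated tumors. The combination lay above both chloroquine and untreated for Ctsc, by 0.55 ± 0.19 and 0.71 ± 0.19 log2 (limma adjusted p = 0.61 and 0.38).

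The range over libraries was taken without regard to treatment. The median lincRNA spanned 1.42 log2 units from its lowest to its highest library, 35 spanned over 2 and 28 under 1. The widest were Gm26809 at 5.42, Gm28653 at 4.31, Gm42418 at 3.67, Mirt1 at 3.40 and AW112010 at 3.35 log2 units. The narrowest were 1700020I14Rik at 0.36, 5031425E22Rik at 0.60, Gm26532 at 0.65, Fam120aos at 0.66 and Tmem250-ps at 0.68. 1700020I14Rik had 71.6, 69.04 and 68.4 CPM in ADI-PEG20 plus chloroquine tumors, 63.2, 73.8 and 75.8 in ADI-PEG20 tumors, 71.2, 64.2 and 63.5 in chloroquine tumors and 72.1, 59.1 and 66.3 in untreated tumors. All 4 groups overlapped for 1700020I14Rik, which had the narrowest range of the 139.

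The spread within groups was compared by level, as a description. The median residual SD within groups was 0.53 log2 for lincRNAs and 0.56 for protein-coding genes at a mean of 1 to 2, and 0.41 and 0.42 at 2 to 3. At 3 to 5 it was 0.34 for lincRNAs and 0.29 for protein-coding genes, and at 5 or more 0.34 for 11 lincRNAs and 0.22 for 5501 protein-coding genes. Genes of the antisense biotype had 0.33 at 3 to 5 and 0.34 at 5 or more. ADI-PEG20 1 was the highest library for 25 of the 139 and the lowest for 23, more than any other on either count. Chloroquine 3 was the highest for 21.

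Gm26809 (chr6:18844220-18847360) was the extreme case. Gm26809 had 12.2, 12.1 and 7.12 CPM in ADI-PEG20 plus chloroquine tumors, 8.78, 8.903 and 36.7 in ADI-PEG20 tumors, 6.38, 5.66 and 19.01 in chloroquine tumors and 5.69, 243 and 12.2 in untreated tumors. Untreated 2 was far above the other 11 libraries, and ADI-PEG20 3 was next. Lsm8, a subunit of the nuclear ring that binds U6 RNA, lies 1219 bases away and had 24.4, 20.02 and 15.5 CPM in ADI-PEG20 plus chloroquine tumors, 10.1, 19.7 and 113 in ADI-PEG20 tumors, 17.5, 15.4 and 39.03 in chloroquine tumors and 20.8, 350.2 and 30.7 in untreated tumors. The same 2 libraries were highest for both genes, with r = 0.95 (permutation p = 0.00011, adjusted over the 139 pairs 0.0051) and rho = 0.83 (permutation p = 0.0014, adjusted 0.024), and r was 0.68 without the 2 libraries farthest from the median of Lsm8 and 0.95 after the group means were removed. Met, the receptor tyrosine kinase encoded on the same chromosome, had 100.1 to 3617 CPM, with untreated 2 highest and untreated 1 next. The fitted difference of Gm26809 between chloroquine and untreated was -1.54 ± 1.05 log2 (SE), and 0.082 without untreated 2, so that its sign turned with that library.

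Some of the 139 share sequence with other genes, and their levels are uncertain where counting could split reads. Of the 139, 9 have over 50% of their 31-base words also in other annotated transcripts. Gm10076 has 84.2%, mainly in common with the ribosomal protein gene Rpl41, and Rpl41 was among the 3 genes with the profile most like its own (r = 0.92). It had 14.6 to 33.9 CPM against 189 to 458 CPM for Rpl41. Gm42418 has 96.3%, Gm26786 99.7%, Gm26561 92.8% and Gm26526 84.3%. Gm26917 shares none with another annotated transcript. Besides, 73 of the 139 share at least 1 exon base with another gene on either strand.

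In the authors' deposited table, which holds their own test for each pair of groups, none of the 139 had an adjusted p under 0.05. At an unadjusted p under 0.05 the authors' deposited table lists 10 of the 139 for ADI-PEG20 plus chloroquine against untreated (beside 10% of all its genes), 1 against ADI-PEG20 (beside 2.41%) and 11 against chloroquine (beside 13.7%). The same authors' deposited table lists 9 for ADI-PEG20 against untreated (beside 5.81%), 3 for chloroquine against untreated (beside 2.91%) and 8 for chloroquine against ADI-PEG20 (beside 6.67%). Both that table and limma on the log2 CPM thus left every lincRNA short of the adjusted threshold.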

How the data were processed

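RNA of 12 tumors was sequenced after ribosomal RNA removal (total RNA, Direct-zol extraction and the KAPA RiboErase kit, per the labels' protocols). The submitters' processing notes name the build mm10 and, without saying what each did, limma, edgeR, Salmon 0.8.2, featureCounts 1.4.6-p5 from Subread, STAR 2.5.1a and bcl2fastq. The deposited table holds log2 CPM per library, with 0.5 read added on an effective library size, and the authors' log2 fold changes, signed linear fold scores and p-values per pair of groups, per the file headers and the values. Its 16386 lines hold 16335 genes. Whole reads were recovered from the log2 CPM: every value under 2000 reads came within 0.02 of a whole number. CPM printed here are 2 to the power of the deposited log2 CPM.

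Groups were compared with limma 3.58.1 (R 4.3.3) on the deposited log2 CPM in 1 fit of 12 libraries and 4 groups, moderated with an expression trend, two-sided, with Benjamini-Hochberg adjustment over all genes and a threshold of 0.05. The code was tested on simulated data. Positions, exons and neighbours come from GENCODE M21 (GRCm38, the mm10 assembly), matched by Ensembl identifier for all 139 lincRNAs, and microRNA sequences from RefSeq (GRCm38.p6). Correlations used 100000 permutations of the libraries. Alternatives were voom or library weights, scalings, log2(CPM + 1), filters, no trend, 2 groups only, single libraries left out and a replicate block. Replicate numbers come from the labels, and same-numbered libraries of ADI-PEG20 plus chloroquine and chloroquine deviated together in the data (r of 0.11 to 0.15, all over 0.1), while no other 2 groups exceeded 0.1 in all 3 pairs. The lincRNAs and lists were chosen with earlier results of these data known. Named were the 10 most abundant, the 6 higher and 6 lower with the smallest p per treatment against untreated, 3 and 3 for other comparisons, role lists, extremes of range and those at the limit. Pathway result files were not used here.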

Additional observations from a re-analysis of the deposited data

How the results depend on the processing

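No lincRNA was called with voom weights, library weights, other scalings, log2(CPM + 1), a filter at 1 log2 CPM, no trend, other limits on the level, the left-out lincRNAs kept, or any single library left out. The exception was ADI-PEG20 plus chloroquine against chloroquine fitted on those 2 groups alone, with 1 call, Gm26507 (adjusted p = 0.045, log2 difference -2.15). Over all genes, where 0 were called, ADI-PEG20 plus chloroquine against chloroquine had 72 in that fit, 15 with library weights, 1 without ADI-PEG20 3 and 22 without ADI-PEG20 1 and untreated 2. ADI-PEG20 plus chloroquine against untreated had 17 without those 2 libraries and 8 with the replicate block, the test over the 4 groups 12 without them and 1 with library weights, and ADI-PEG20 against untreated 1 without untreated 3. Deviations of same-numbered libraries from their group means correlated with r of -0.050 to 0.20 (median 0.097, over 0.1 in 9 of 18 pairs), against a median of -0.039 for the other 36 pairs, 3 of them over 0.1. Only between ADI-PEG20 plus chloroquine and chloroquine did all 3 pairs exceed 0.1. With the replicate block, 0 lincRNAs were called in any comparison. The lincRNAs at an unadjusted p under 0.05, with the share of all genes in parentheses, were then 6 (7.88%) in place of 5 for ADI-PEG20 plus chloroquine against chloroquine, 12 (10.2%) in place of 8 for ADI-PEG20 plus chloroquine against untreated, 7 (5.67%) in place of 4 for the interaction and 8 (7.81%) in place of 5 over the 4 groups. With H19 and Meg3 kept in the main fit, they were 7 (6.78%) in place of 5 for ADI-PEG20 plus chloroquine against chloroquine, all lower. They were 9 (8.65%) in place of 8 for ADI-PEG20 plus chloroquine against untreated and 6 (5.72%) in place of 5 over the 4 groups. The other comparisons kept their counts.

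The median difference of ADI-PEG20 plus chloroquine against untreated was 0.10 on total reads and 0.019 on reads of protein-coding genes. Against ADI-PEG20 it was 0.16 on total reads, and against chloroquine 0.080 and 0.036. That of ADI-PEG20 against untreated was 0.055 without ADI-PEG20 1 and untreated 2, a setting chosen after seeing the data. The cause was not tested. With single libraries left out, the medians ran from -0.086 to -0.012, -0.047 to 0.036 and -0.084 to 0.0053 for ADI-PEG20 plus chloroquine against untreated, ADI-PEG20 and chloroquine, from -0.076 to 0.032 for ADI-PEG20 and from -0.052 to 0.050 for chloroquine against untreated. The exact p of the share ran from 0.066 to 0.61, and from 0.55 to 0.94 without Gm26917.

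Of 1236 values of named lincRNAs under the alternatives, 1234 kept their direction. Gm26809, chloroquine against untreated, was 0.082 both without untreated 2 and without ADI-PEG20 1 and untreated 2, and ran from -2.62 to 0.082 with single libraries left out. Depth and 3 libraries a group limit the precision most near 1 log2 CPM, where the median residual SD was 0.53 log2.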
